A study of Mus musculus with 22 samples.

Results

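Complement component C3 and 8 genes around it were followed in the hearts of mice that had received nanosized titanium dioxide (nano-TiO2) or vehicle into the trachea: C3 itself, the alternative pathway proteins Cfb and Cfp, the anaphylatoxin receptors C3ar1 and C5ar1, and the regulators Clu, Cd55, Cd59a and Cr1l. The genes were taken by name, as C3, the alternative pathway and the regulators of complement, with earlier results of these data known, and no measured value entered the rule. The arrays carried 12 probes for these 9 genes among 41174 probes that were not controls. A probe was kept for testing where its heart signal was well above background on at least 5 of 22 arrays, which left 9 probes of 7 members among 19275 probes.

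The study instilled 162 µg of nano-TiO2 in 40 µl of fluid once into the trachea of female C57BL/6 mice, or the same fluid without particles, and took the hearts 1 or 28 days later. The fluid was saline with 10% cell-free lung lavage fluid from untreated mice, so every mouse in all 4 groups had received lavage fluid. The mice were bought at 5 to 7 weeks of age and kept for 1 to 3 weeks before the instillation. The groups were control day 1 (5 mice), nano-TiO2 day 1 (5 mice), control day 28 (6 mice) and nano-TiO2 day 28 (6 mice). Day 28 mice were therefore also older at death than day 1 mice, and among the controls time and age cannot be told apart. Each mouse was measured on 1 array with heart RNA in Cy5 and a common mouse reference RNA in Cy3, and its values are the log2 of heart signal over reference signal. The p-values measure the spread between mice.

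Complement is a cascade of plasma proteins in which C3 is cleaved to C3a and C3b. In the alternative pathway C3b binds factor B (Cfb), which is cut to form a C3-cleaving enzyme, and properdin (Cfp) stabilises that enzyme. C3a and C5a signal through the receptors C3ar1 and C5ar1, while Cd55 and Cr1l (Crry) block the C3-cleaving enzymes on cell surfaces, and Cd59a and the secreted protein clusterin (Clu) block the membrane attack complex. Liver makes most plasma C3, and fat cells, macrophages and other cells of tissues make complement proteins locally.

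The sequences just before the transcription start are shown for C3 and Cfp, which were higher in day 28 than in day 1 controls (values below), and for Cr1l, which did not pass the test in any comparison. They come from RefSeq (GRCm38.p6), which held entries for 7 of the 9 members. The entries of 4 members began at the end of the annotated gene, and 3 of them are printed. Each is the 250 bases before the start on the minus strand, 5′ to 3′, with matches to 5 motifs in capitals.
C3 (chr17:57228137-57228386): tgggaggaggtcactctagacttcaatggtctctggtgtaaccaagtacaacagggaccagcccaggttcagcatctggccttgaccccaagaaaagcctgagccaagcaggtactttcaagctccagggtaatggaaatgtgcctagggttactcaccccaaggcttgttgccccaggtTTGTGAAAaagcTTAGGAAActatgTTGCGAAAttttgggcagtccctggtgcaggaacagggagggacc
Cfp (chrX:20931556-20931805): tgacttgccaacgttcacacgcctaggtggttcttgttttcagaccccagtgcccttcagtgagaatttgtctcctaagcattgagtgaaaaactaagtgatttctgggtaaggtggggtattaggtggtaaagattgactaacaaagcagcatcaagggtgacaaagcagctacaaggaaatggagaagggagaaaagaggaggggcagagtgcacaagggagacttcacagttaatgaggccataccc
Cr1l (chr1:195131571-195131820): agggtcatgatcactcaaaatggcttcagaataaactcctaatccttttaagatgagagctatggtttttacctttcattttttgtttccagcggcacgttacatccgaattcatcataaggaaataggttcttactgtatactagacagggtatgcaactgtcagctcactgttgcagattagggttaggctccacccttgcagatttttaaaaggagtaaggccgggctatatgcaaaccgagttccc

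The motifs searched, on both strands, were TATAAA (12.4% of all 32841 RefSeq windows of this length held it), CCAAT (33.9%), GGGCGG (32.7%), TTNNGNAA, a form of the C/EBP motif (36.9%), and the kappa B motif (3.9%). The capitals in C3 mark 3 matches to TTNNGNAA, at 70 to 63, 58 to 51 and 45 to 38 bases before the start. At least 3 matches to that motif stood in 2.62% of all windows. In the windows of Cfp and Cr1l none of the 5 motifs was matched, which says only that these letters are absent there. A match is a description of the letters and not a binding site.

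The labels name the heart as the tissue but their account of RNA extraction names the lung. All 6 markers listed as ventricular (Myl2, Myl3, Myh6, Irx4, Tnnt2 and Actc1) were well above background on all 22 arrays. Sftpc, Sftpb, Foxj1 and Nkx2-1, listed as lung epithelial, were well above background on 0 arrays. The lung genes Sftpa1 and Sftpd were well above background on 2 arrays each, Cldn18 on 1, Scgb1a1 on 6 and Lamp3 on 10. The share of probes that stood well above background in Cy5 ran from 32.7% to 52.8% over the arrays. On 3 arrays (control day 1 replicate 2, nano-TiO2 day 1 replicate 1 and nano-TiO2 day 28 replicate 1) fewer than 6 of 8 atrial markers were well above background. On 5 arrays (control day 28 replicates 1, 3, 4 and 5 and nano-TiO2 day 1 replicate 2) the mean of liver or of lung markers lay more than 0.5 (log2) above that of all arrays. The lung mean rested on 2 kept genes of 10, Scgb1a1 and Lamp3. It passed this limit in control day 28 replicates 1 and 5, where 1 of the 2 genes was well above background. Values that moved by over 1.5 times or changed their call without these arrays are given for the 5 members with the larger differences. The comparison of nano-TiO2 mice over time is the exception, where only ranges over the alternative settings are given. In bulk tissue, fewer cells of a type and less RNA per cell cannot be told apart.

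C3, the protein on which all routes of complement activation converge (gene on chr17:57203967-57228136, GRCm38.p6), was low in the day 1 controls and high in the day 28 controls. In the day 1 controls its log2 ratios were -1.35, -0.46, -0.99, -0.29 and 0.15, with a mean of -0.59 ± 0.59 (SD, n = 5). In the nano-TiO2 mice at day 1 they were -0.39, 0.97, 0.17, 1.98 and 0.88, with a mean of 0.72 ± 0.90 (SD, n = 5). Replicate 1 of the nano-TiO2 group lay inside the range of the day 1 controls and the other 4 mice lay above it.

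At day 28 the controls ran from 0.94 to 2.52 with a median of 1.75 (mean 1.78 ± 0.64, SD, n = 6). The nano-TiO2 mice at day 28 ran from 0.05 to 2.31 with a median of 0.86 (mean 1.07 ± 0.81, SD, n = 6). Every day 28 control lay above every day 1 control, while both nano-TiO2 groups overlapped each other and the day 28 controls. A second, dim C3 probe stood well above background on 10 arrays, of which 0 were day 1 controls, 2 were nano-TiO2 mice at day 1, 5 were day 28 controls and 3 were nano-TiO2 mice at day 28.

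Cfb, the zymogen whose active fragment cuts C3 (chr17:34856374-34862514), also had its lowest median in the day 1 controls and its highest in the day 28 controls. Its log2 ratios in the day 1 controls were 0.21, 0.48, 0.23, 0.14 and 0.56, of which the 0.14 of replicate 4 was not well above background. In the nano-TiO2 mice at day 1 they were 0.41, 1.37, 0.96, 1.96 and 0.99. The day 28 controls ran from 0.67 to 2.88 (median 1.74) and the nano-TiO2 mice at day 28 from 0.24 to 2.10 (median 0.85). All 6 day 28 controls lay above all 5 day 1 controls, and 4 of 5 nano-TiO2 mice at day 1 did.

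Cfp, which encodes properdin and lies on the X chromosome (chrX:20925454-20931555), had day 1 controls that lay close together. Its log2 ratios there were -0.34, -0.27, -0.42, -0.26 and -0.25 (mean -0.31 ± 0.07, SD, n = 5). The nano-TiO2 mice at day 1 had -0.02, 0.40, -0.02, 0.92 and 0.14 (mean 0.28 ± 0.39, SD, n = 5). These groups did not overlap. At day 28 the controls ran from 0.13 to 1.35 (median 0.68), all above the day 1 controls. The nano-TiO2 mice at day 28 ran from -0.39 to 1.52 (median 0.22), the widest range of the 4 groups, and reached down into the range of the day 1 controls.

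The anaphylatoxin receptors were not measurable above background in these hearts. Of the C3ar1 probes (chr6:122847140-122856157), 1 was well above background on 1 of 22 arrays (nano-TiO2 day 28 replicate 5) and the other on 0. The C5ar1 probe (chr7:16246743-16259540) was well above background on 0 arrays. No fold is given for these receptors, since both sides of every comparison lay at background, and their transcripts may be present below what the arrays can show. The brighter C3ar1 probe was well above background in the Cy3 reference on all 22 arrays, and the C5ar1 probe on 0.

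Clusterin, the secreted regulator (chr14:65968483-65981548), had day 1 controls at 3.23, 3.50, 3.41, 2.85 and 3.53 (mean 3.30 ± 0.28, SD, n = 5). The nano-TiO2 mice at day 1 had 3.70, 4.22, 4.19, 4.18 and 3.81 (mean 4.02 ± 0.24, SD, n = 5), with no overlap. The day 28 controls ran from 3.68 to 4.41 (median 4.17), also without overlap with the day 1 controls. The nano-TiO2 mice at day 28 ran from 3.35 to 4.11 (median 3.82), and 1 of them lay inside the range of the day 1 controls. Clu was well above background in both channels of every array.

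Cd55, the anchored protein that speeds the decay of C3-cleaving enzymes (chr1:130429798-130465009), was dim, with a net Cy5 intensity of 6 to 42.5 scanner units. Its day 1 controls had 0.06, 0.39, 0.23, 0.03 and 0.14, and the nano-TiO2 mice at day 1 had 0.48, 0.39, 0.62, 0.76 and 0.32. The day 28 controls ran from 0.24 to 1.00 (median 0.60) and the nano-TiO2 mice at day 28 from 0.08 to 0.74 (median 0.38). All 4 groups overlapped. Its reference signal was well above background on only 2 of 22 arrays, so its ratios rest on a Cy3 signal near background. In Cy5 it was well above background in 3 of 5 day 1 controls, 5 of 5 nano-TiO2 mice at day 1, 5 of 6 day 28 controls and 3 of 6 nano-TiO2 mice at day 28.

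The other regulators did not follow this order. Cd59a, the inhibitor of the membrane attack complex (chr2:104095753-104115410), had group means of 3.33, 3.24, 3.20 and 3.26 in day 1 controls, nano-TiO2 at day 1, day 28 controls and nano-TiO2 at day 28. All 22 mice lay between 2.90 and 3.57. Its second probe had group means between 1.26 and 1.42. Cr1l, the rodent inhibitor Crry (chr1:195098711-195131570), had group means between 0.29 and 0.33, with mice from 0.05 to 0.63. In both genes the 4 groups overlapped.

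**Figure D1:**
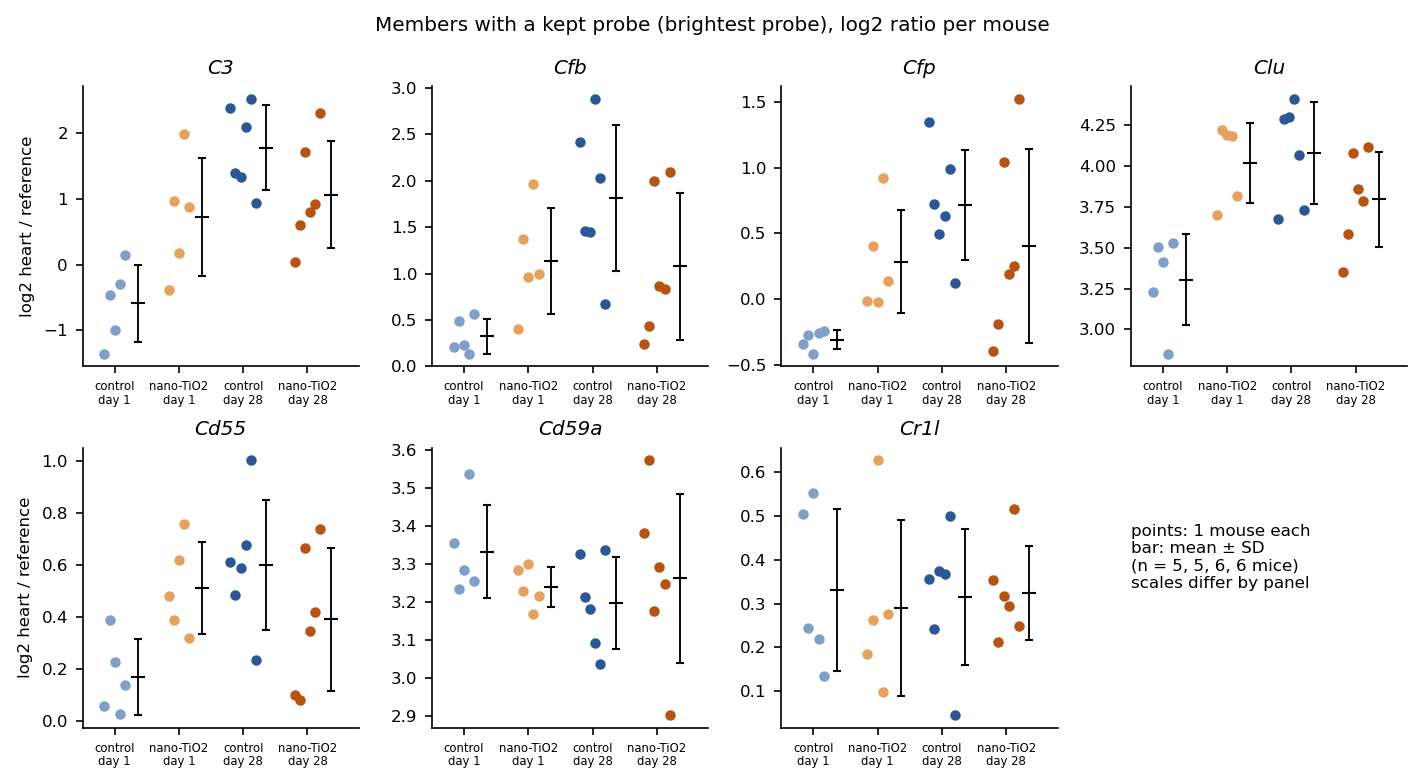
Log2 ratio of heart to reference RNA (vertical axis, scale set for each panel) for the 7 members with a kept probe, 1 point per mouse, in the 4 groups on the horizontal axis, with bars for mean ± SD. In C3, Cfb, Cfp and Clu all day 28 controls lie above all day 1 controls, while Cd59a and Cr1l overlap in all groups.

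The first comparison asked whether these genes differed between nano-TiO2 and vehicle mice after 1 day. In the fit over all 19275 kept probes with limma, 0 probes (0%) passed an adjusted p of 0.05 by Benjamini-Hochberg, so 0 of 9 member probes did, and 1659 probes had an unadjusted p under 0.05. The smallest adjusted p over all probes was 0.334. C3 was 1.31 ± 0.42 (SE, 5 against 5 mice) higher in log2 with nano-TiO2, a 2.49-fold difference (95% interval 0.44 to 2.19, limma adjusted p = 0.482). Clu was 0.71 ± 0.17 higher, Cfb 0.81 ± 0.37, Cfp 0.59 ± 0.28 and Cd55 0.34 ± 0.13. Their limma adjusted p ran from 0.478 for Clu to 0.567 for Cfp.

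These 5 probes were the members with an unadjusted p under 0.05 at day 1, all higher, 5 of 9 against 5.6% of all kept probes. In 2 of 9 member probes, those of Cfp and Clu, every nano-TiO2 mouse at day 1 lay above every control, which 1.18% of all kept probes showed. The dim C3 probe differed by 0.16 ± 0.14, Cd59a by -0.09 ± 0.10 and Cr1l by -0.04 ± 0.10. Without the 3 arrays with few atrial transcripts Clu was 0.84 higher and passed (limma adjusted p = 0.0469). Leaving them out did not even out the atrial markers at day 1. Their mean (log2, centred on all arrays) then ran from -1.97 to -0.06 in controls and 0.43 to 1.05 with nano-TiO2, without overlap. Within the 4 slides that held both groups, C3, Cfb, Cfp and Clu were higher in the nano-TiO2 mouse on 4 of 4, and Cd55 on 3 of 4. Each of these slides held 1 mouse of each group. For Cfp and Clu 4 of 4 was fixed in advance, since their groups did not overlap.

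After 28 days the same 5 genes were lower with nano-TiO2 in value, and none passed. With nano-TiO2 C3 was -0.71 ± 0.39 (SE, 6 against 6 mice) in log2 from control, 1.64-fold lower, with an interval of -1.51 to 0.09 (limma adjusted p = 0.704). Cfb was -0.74 ± 0.34 from control, Cfp -0.31 ± 0.25, Clu -0.28 ± 0.15 and Cd55 -0.21 ± 0.12. In the whole limma fit 0 probes (0%) passed, 1387 had an unadjusted p under 0.05, and the smallest adjusted p was 0.681. The dim C3 probe and Cfb had an unadjusted p under 0.05 on the lower side, 2 of 9 member probes against 4.9% of all kept probes. In every member the groups overlapped. Within the 6 slides that each held 1 mouse of both groups, C3 was lower with nano-TiO2 on 4 and higher on 2, and its differences ran from -2.34 to 1.37. Without the 5 arrays with liver or lung transcripts, 4 of them day 28 controls, C3 was -0.11 from control, Clu -0.21 and Cfp -0.02, while the dim C3 probe (0.07), Cd55 (0.03) and Cfb (0.0098) changed sign. Without the 3 arrays with few atrial transcripts Cfp was -0.15 and Clu -0.19 from control. With the mean of adipocyte markers in each mouse (below) as a covariate, C3 was 0.17 and Cfp 0.27 from control, the other way round, Clu was -0.11, Cfb -0.02 and Cd55 -0.0062, and none passed.

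The difference between the treatment effects at day 28 and day 1 was tested as an interaction. It was -2.03 ± 0.57 (SE, 22 mice) for C3 (limma adjusted p = 0.125), -0.996 ± 0.23 for Clu (adjusted p = 0.119), -1.55 ± 0.50 for Cfb, -0.91 ± 0.38 for Cfp and -0.55 ± 0.18 for Cd55. None passed, as in the whole limma fit (0%), where 2782 probes had an unadjusted p under 0.05 and the smallest adjusted p was 0.0776. An unadjusted p under 0.05 on the lower side was found in 6 of 9 member probes and in 9.1% of all kept probes. The call depended on single mice: without nano-TiO2 day 1 replicate 1, the mouse with the lowest C3 in its group, C3 passed at -2.31 (limma adjusted p = 0.0387) and Clu at -1.08 (adjusted p = 0.0226). Clu also passed without nano-TiO2 day 28 replicate 3 (adjusted p = 0.0456) and without the 3 arrays with few atrial transcripts (adjusted p = 0.0443). Without the 5 arrays with liver or lung transcripts the difference was -1.36 for C3, -0.88 for Clu, -0.75 for Cfb, -0.58 for Cfp and -0.34 for Cd55, and for the dim C3 probe it was -0.09 in place of -0.44 (limma adjusted p from 0.798 to 0.956). With the adipocyte covariate it was -0.07 for C3, -0.61 for Clu, 0.04 for Cfb, 0.39 for Cfp and -0.10 for Cd55 (adjusted p of 0.999). The day 1, day 28 and control comparisons share control mice, so their values are set side by side and not counted as separate support.

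The day 28 controls were then compared with the day 1 controls, which had received vehicle alone. C3 rose by 2.37 ± 0.41 (SE, 6 against 5 mice) in log2, or 5.17-fold, with an interval of 1.53 to 3.21 (limma adjusted p = 0.00288). Cfb rose by 1.49 ± 0.36 or 2.81-fold (adjusted p = 0.0118) and Cfp by 1.03 ± 0.27 or 2.04-fold (adjusted p = 0.0182). Among the regulators Clu rose by 0.77 ± 0.16 or 1.71-fold (adjusted p = 0.00618) and Cd55 by 0.43 ± 0.13 (adjusted p = 0.0368). The size for Cd55 is not settled, since it was 2.00 with plain background subtraction (adjusted p = 0.0689), 1.73 with the scanner log ratios (adjusted p = 0.0168) and 0.21 with Cy5 alone (adjusted p = 0.122). The dim C3 probe rose too, by 0.58 ± 0.14 (interval 0.30 to 0.86, adjusted p = 0.011). Since it was not well above background in any day 1 control, its estimated fold is given as a bound, 1.35-fold. The bound concerns the background only and leaves out the spread between mice, so smaller folds are possible. This bound sets the mean of the 6 day 28 controls, of which 5 were well above background, against the higher of the probe's own signal and the lowest signal among probes well above background on each day 1 control array. The dim C3 probe was 2.26 higher with plain background subtraction, 1.76 with the scanner log ratios and 0.35 with Cy5 alone, and Clu was 1.30 higher with Cy5 alone.

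Together 6 of 9 member probes passed in this comparison, all 6 higher, against 9.43% of all kept probes in either direction, 6.2% higher and 3.23% lower. The median over the 9 member probes was 0.58, and over all kept probes -0.01. In 4 of 9 member probes (C3, Cfb, Cfp and Clu) the groups did not overlap, as in 4.25% of all kept probes. Cd59a differed by -0.13 (interval -0.32 to 0.05), its second probe by 0.16 (-0.32 to 0.63) and Cr1l by -0.02 (-0.22 to 0.19), and none of these passed.

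These calls did not hold with slide as a block, where 0 members and 0 probes passed while 3333 probes had an unadjusted p under 0.05, C3 was 2.34 higher (limma adjusted p = 0.0829), and the other 5 had adjusted p from 0.091 for the dim C3 probe to 0.161 for Cd55. On each of the 3 slides that held a control of both days, all 6 probes were higher at day 28, C3 by 2.32 to 2.85, and they were higher on each of the 3 scan days. For C3, Cfb, Cfp and Clu this had to be so, since their control groups did not overlap. The 6 probes were also picked for passing in these same mice, so these directions are no separate support. Cd55 also lost its call without any 1 of 7 of the 11 control mice (day 1 replicates 1, 3, 4 and 5 and day 28 replicates 1, 4 and 5), with adjusted p from 0.057 to 0.0943. Median centring of each array in place of loess moved the median of all probes in this comparison to 0.12, and of the 6 only C3 then passed (2.61, adjusted p = 0.0277). With normexp fitted on all spots only C3 (2.33, adjusted p = 0.0382) and Clu (0.82, adjusted p = 0.0443) of the 6 passed, and the other 4 had adjusted p from 0.09 for the dim C3 probe to 0.247 for Cd55.

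Between day 1 and day 28 no member passed among the nano-TiO2 mice. C3 differed by 0.34 ± 0.41 (SE, 6 against 5 mice, interval -0.50 to 1.18, limma adjusted p = 0.932) and Cfb by -0.06 ± 0.36. Cfp differed by 0.12 ± 0.27, Clu by -0.22 ± 0.16 and Cd55 by -0.12 ± 0.13. In the whole limma fit 0 probes (0%) passed, 867 had an unadjusted p under 0.05, and the smallest adjusted p was 0.196. An unadjusted p under 0.05 was found in 0 of 9 member probes and in 4.5% of all kept probes.

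**Figure D2:**
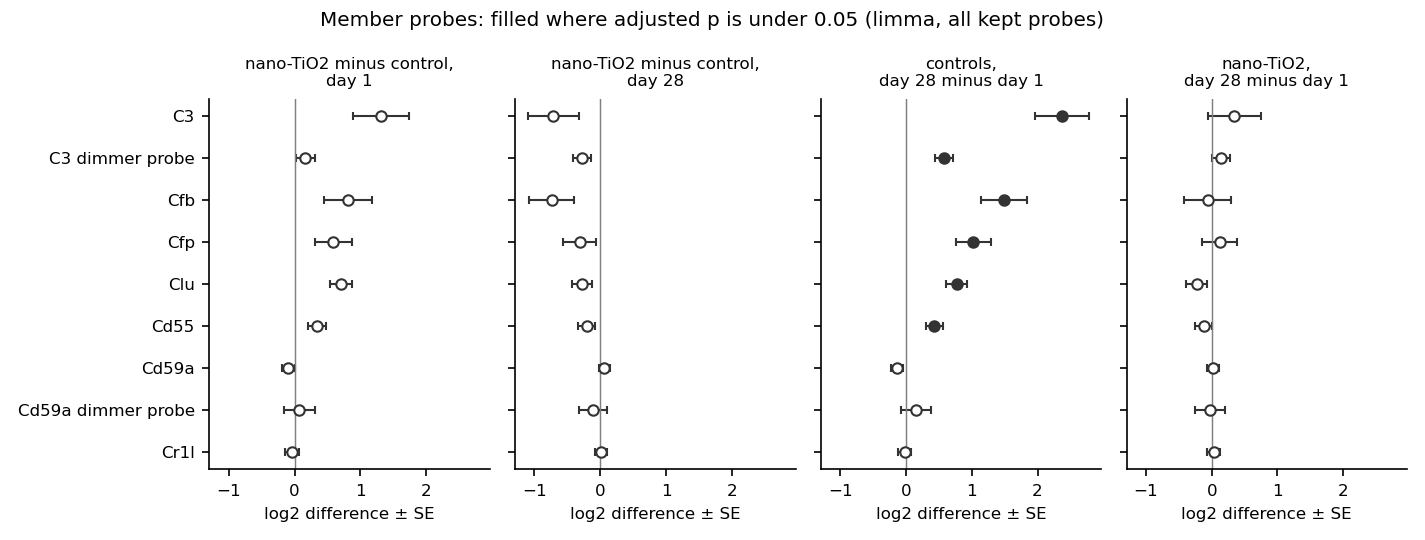
Log2 differences with SE (horizontal axis) for the 9 kept member probes (vertical axis) in 4 comparisons, filled where the limma adjusted p over all kept probes was under 0.05. Filled points stand only in the comparison of day 28 with day 1 controls, with C3 at 2.37 as the largest.

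The other genes of the complement system were looked at as a list of 40, of which 23 had a kept probe. In day 28 against day 1 controls 9 of the 23 passed on the higher side (C1qb, C1qc, C1ra, C2, C4b, C5ar2, Cfd, Serping1 and Vsig4) and C1qbp on the lower side, beside 6.2% and 3.23% of all kept probes. Each of the 23 genes stands for its brightest kept probe, while these shares are over all kept probes. With 1 probe a gene, 1623 of 15503 passed in this comparison, 1090 of them higher. The median over the 23 genes was 0.49. Cfd, the protease adipsin that cuts factor B and is made in quantity by fat cells, rose by 6.12 ± 1.23 (SE) in log2 (limma adjusted p = 0.00526). Its day 1 controls had a mean of 1.57 ± 1.95 (SD, n = 5), from 0.37 to 5.04, and its day 28 controls 7.69 ± 0.92 (SD, n = 6), from 6.42 to 8.82. C2, the classical pathway counterpart of factor B, rose by 1.90 ± 0.39 (adjusted p = 0.00618). Cfi, the protease that cleaves C3b, differed by 1.06 ± 0.40 and did not pass (adjusted p = 0.0957). With slide as a block, without the 5 arrays with liver or lung transcripts, or with the adipocyte covariate, 0 of the 23 genes passed. Cfd was then 5.23, 5.43 and 1.21 higher (limma adjusted p = 0.104, 0.288 and 0.993). Without the 3 arrays with few atrial transcripts 8 of the 23 passed on the higher side and 1 on the lower side. There Cfd was 5.89 higher (limma adjusted p = 0.000375) and C5ar2 lost its call.

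At day 1 none of the 23 genes passed. An unadjusted p under 0.05 was found on the higher side in 9 of them, with Cfd 4.37 ± 1.28 and C2 1.26 ± 0.41 higher with nano-TiO2 (limma adjusted p = 0.482 for both), against 5.6% of all kept probes. At day 28 none passed either, and 8 of 23 had an unadjusted p under 0.05 on the lower side against 4.9% of all kept probes. The median over the 23 genes was 0.13 at day 1 and -0.28 at day 28.

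**Figure D3:**
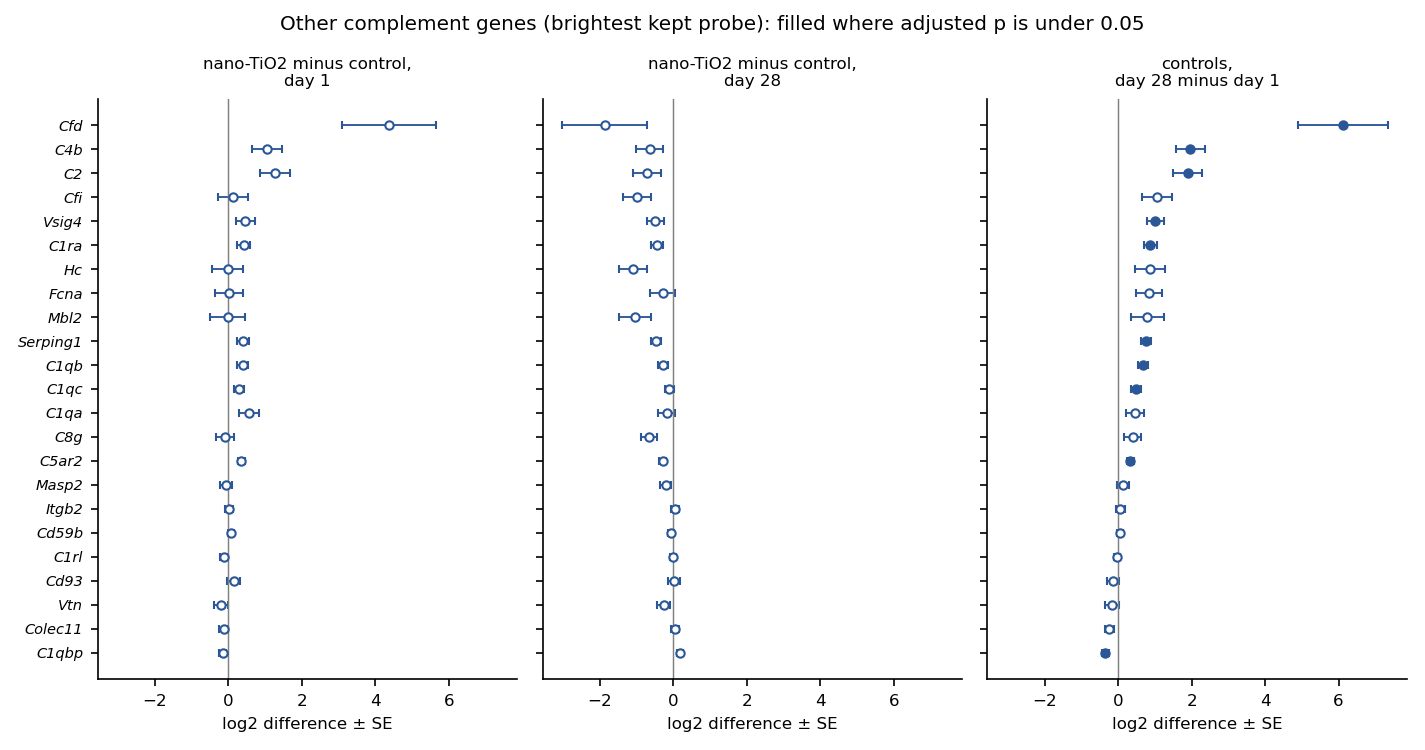
Log2 differences with SE (horizontal axis) for the 23 other complement genes with a kept probe (vertical axis) in 3 comparisons, filled where the limma adjusted p over all kept probes was under 0.05. In the controls 9 genes are filled on the higher side, Cfd at 6.12 as the largest, and C1qbp on the lower side.

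Markers of other cell types moved with these genes. Of 12 adipocyte markers 10 had a kept probe, and Lep was well above background on 0 arrays. Their mean per mouse, as a log2 ratio centred on all arrays, ran from -1.68 to -1.05 in day 1 controls, -1.60 to 1.84 in nano-TiO2 mice at day 1, -0.19 to 2.26 in day 28 controls and -1.56 to 1.48 in nano-TiO2 mice at day 28. Of the 10 markers 5 to 8 were well above background in day 1 controls, 10 in each day 28 control, and 4 to 10 in the mice of either nano-TiO2 group. Nano-TiO2 day 1 replicate 1, whose C3 lay inside the control range, had the lowest adipocyte mean of its group at -1.60. The same mouse was also lowest of its group in atrial (-2.91), liver (-1.34), smooth muscle (-0.81) and mesothelium (-0.80) markers. So it was in fibroblast (-0.69), macrophage (-0.33) and erythroid (-0.28) markers. In lung epithelium, neutrophil, B cell, T cell, endothelial and ventricular markers it was not the lowest.

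Across the 22 mice, with the mean of each group subtracted, C3 followed the adipocyte mean with r = 0.905 and rho = 0.86 (permutation p = 1e-05 and 2e-05). The first of these is the smallest p that 100000 permutations within groups can give. Without the 2 mice farthest from the median r was 0.859. Cfp had r = 0.917 and rho = 0.928 (permutation p = 1e-05 for both, r = 0.902 without 2 mice) and Cfb r = 0.841 and rho = 0.789 (permutation p = 0.00015 and 0.00072, r = 0.787 without 2 mice). Over the 21 relations computed, of 7 members with 3 lists, the Benjamini-Hochberg adjusted p was 0.000105 for C3 and Cfp and 0.00105 for Cfb by r, and 0.00021, 0.00021 and 0.00504 by rho. Within the 3 scan days, of 6 to 8 mice each, r ran from 0.806 to 0.97 for C3, 0.892 to 0.989 for Cfp and 0.586 to 0.969 for Cfb. A slide held at most 4 arrays, too few for a value.

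Relations with the liver and macrophage lists were as follows, and none were computed with the atrial, smooth muscle and remaining lists. With the liver mean Cfb had r = 0.724 and rho = 0.696 (permutation p = 0.00067 and 0.00235, adjusted 0.00294 and 0.0123), Cfp r = 0.445 and rho = 0.532 (permutation p = 0.0253 and 0.0179, adjusted 0.0483 and 0.0418) and C3 r = 0.464 and rho = 0.464 (permutation p = 0.0369 and 0.0492, adjusted 0.058 and 0.0861). With the macrophage mean Cfb had r = 0.723 and rho = 0.65 (permutation p = 0.00102 and 0.00384, adjusted 0.00357 and 0.0161), Cfp r = 0.641 and rho = 0.522 (permutation p = 0.0117 and 0.0357, adjusted 0.0246 and 0.075) and C3 r = 0.527 and rho = 0.425 (permutation p = 0.0327 and 0.0814, adjusted 0.0572 and 0.114). Without 2 mice the r of these 6 relations ran from 0.314, for C3 with the macrophage mean, to 0.652.

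The regulators had lower r with the adipocyte mean in value. Clu had r = 0.472 and rho = 0.36 (permutation p = 0.0387 and 0.112, adjusted 0.058 and 0.147), and within scan days r from 0.355 to 0.725. Cd55 had r = 0.689 and rho = 0.485 (permutation p = 0.00281 and 0.0475, adjusted 0.00843 and 0.0861), and within scan days 0.4 to 0.842. Cd59a ran the other way, with r = -0.611 and rho = -0.551 (permutation p = 0.00339 and 0.0117, adjusted 0.0089 and 0.0307), and within scan days -0.759 to -0.282. Cr1l had r = 0.000833 and rho = -0.0638 (permutation p = 0.997 and 0.783). Clu had its highest r of the 3 lists with the macrophage mean, at 0.698 (rho = 0.584, permutation p = 7e-04 and 0.00772, adjusted 0.00294 and 0.0241). Cd55 had r = 0.621 and rho = 0.618 with it (permutation p = 0.007 and 0.00803, adjusted 0.0163 and 0.0241).

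With the adipocyte mean of each mouse as a covariate, the differences between day 28 and day 1 controls were 0.59 for C3, 0.04 for Cfb, -0.15 for Cfp, 0.42 for Clu and 0.02 for Cd55, and 0 members and 0 of 19275 probes passed, with 982 probes at an unadjusted p under 0.05 (limma adjusted p of 0.96 or more for these 5). Without the 5 arrays with liver or lung transcripts, which left 2 day 28 controls, the same differences between day 28 and day 1 controls were 1.76 for C3, 0.74 for Cfb, 0.73 for Cfp, 0.70 for Clu, 0.19 for Cd55 and 0.23 for the dim C3 probe, and none of them passed (limma adjusted p from 0.269 to 0.717). The adipocyte covariate left day 1 differences with nano-TiO2 of 0.24 for C3, 0.50 for Clu, 0.10 for Cd55, -0.06 for Cfb and -0.12 for Cfp, none of which passed (adjusted p of 0.968 or more). In the controls the adipocyte means did not overlap between day 1 (-1.68 to -1.05) and day 28 (-0.19 to 2.26). Wherever this covariate was used on the controls, the fit therefore separates day and marker mean poorly, and probes that do not pass decide nothing. The part of any cell type in the differences was not tested beyond these values.

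**Figure D4:**
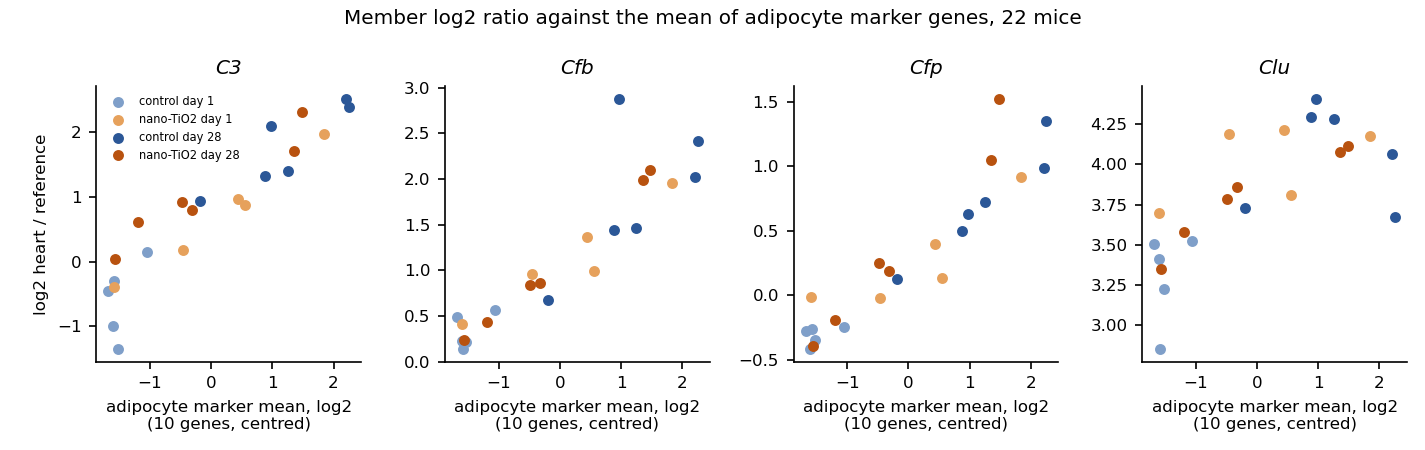
Log2 ratio of C3, Cfb, Cfp and Clu (vertical axes) against the mean of 10 adipocyte marker genes (horizontal axis, log2, centred on all arrays), 1 point per mouse, coloured by group. The day 1 controls, nano-TiO2 day 1 replicate 1 and nano-TiO2 day 28 replicates 1 and 2 stand at the low end, and in C3, Cfb and Cfp the mice with the highest marker means are among the highest values.

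Of all 14 marker lists 12 had a higher mean in day 28 than in day 1 controls. The differences were 2.72 for adipocyte, 2.18 for atrial, 1.42 for smooth muscle, 1.25 for mesothelium, 1.16 for liver, 0.79 for B cell, 0.64 for fibroblast, 0.50 for macrophage, 0.45 for lung epithelium, 0.36 for neutrophil, 0.21 for T cell and 0.12 for erythroid markers. Markers listed as ventricular differed by -0.46 and endothelial markers by -0.12. Some of these means rest on few kept genes: 2 each for lung epithelium and neutrophil, and 3 each for B cell and T cell markers. At day 1 the nano-TiO2 mice differed from control by 1.65 in adipocyte, 1.33 in atrial and 0.97 in smooth muscle markers, and at day 28 by -1.35, -0.84 and -0.64. Macrophage markers, of which 11 or 12 of 12 were well above background in every mouse, differed by 0.28 at day 1 and -0.21 at day 28.

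Among themselves, over the 22 mice with group means subtracted, C3, Cfb and Cfp had r between 0.847 and 0.855 for each pair. Clu had r of 0.428 with C3, 0.602 with Cfb and 0.428 with Cfp, and Cd55 0.663 to 0.744 with these 3. Cd59a had negative r with C3, Cfb, Cfp, Clu and Cd55, from -0.58 to -0.78. These are descriptions of arrays that share a reference RNA and, within a slide, a hybridisation. Among 10354 genes the 3 most like C3 on this measure were Ptprf, a receptor tyrosine phosphatase (r = 0.978), C4b, the complement C4 gene (0.96), and Efemp1, an extracellular matrix protein (0.957). For Cfb they were H2-Q1, an MHC class I gene (0.946), Rbp4, the retinol-binding protein (0.944), and Fasn, the fatty acid synthase (0.942), and for Cfp they were Cd1d1, a lipid-presenting molecule (0.962), Cdo1, cysteine dioxygenase (0.945), and Ntrk2, a neurotrophin receptor (0.937).

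The regulators had other neighbours. Clu was most like Actn4, an actin crosslinker (0.897), Ndnf (0.897) and Tbx5, a heart transcription factor (0.893), and Cd55 was most like Ppp1r1a (0.842), Mst1r (0.84) and H6pd (0.836). Cd59a was most like Wdr12 (0.873), Mrpl4 (0.866) and Nfix (0.848), and Cr1l, whose highest r was 0.789, like Tmtc2, Trmt1l (0.761) and Klk8 (0.76).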

How the data were processed

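Heart RNA (Cy5) and Universal Mouse Reference RNA (Cy3) were hybridised together on 22 Agilent arrays on 9 slides, with no dye swap, per the labels. RNA integrity numbers were 7 and above, per the labels. The deposited scanner files hold median spot and local background intensity in both channels, not subtracted or normalized, and a log10 ratio of Cy5 to Cy3 made by the authors' scanner software. The software was Agilent Feature Extraction 10.7.3.1 per the file headers and 9.5.3.1 per the submitters' processing notes. The authors' deposited series matrix holds log2 values whose method is not given in the sources used here. Set against loess ratios made without background subtraction, it gave r of 0.992 to 0.998 and slopes of 0.984 to 0.996, so that its scale and direction (heart over reference) were settled. Its column medians ran from -0.0362 to -0.0207, and whether these come from a centring stays unknown.

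From the median intensities log2 ratios were computed with limma 3.58.1 in R 4.3.3, read with the data.table package (version 1.17.8): normexp with an offset of 50, which shrinks ratios of dim probes such as those of Cd55 and Cr1l, fitted without spots marked for an uneven background, then loess with control spots at weight 0. Flagged spots (0.299%) were left out and spots of 1 probe averaged. Pairs of arrays correlated at 0.895 to 0.986 over kept probes. Probes were named through RefSeq accessions, 23374 of them to 16535 genes, and of a gene with several kept probes the one with the highest mean Cy5 signal is meant unless the text says second or dim probe. One limma fit with a mean for each of 4 groups, eBayes and Benjamini-Hochberg over 19275 probes gave 5 contrasts at a threshold of 0.05, and the script was checked on simulated data. Intervals are 95% intervals of the fit. Arrays give no counts, so their number limits the precision.

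The text names all 9 members, the 3 genes most like each by r with group means subtracted (clone and predicted names left out), and values of Cfd, Cfi and C2 among other complement genes, of whose list 1 gene is not reported here. Members and lists were chosen with earlier results of these data known. Alternatives were other background corrections, the series matrix or the scanner log ratios in place of these, Cy5 alone, median centring or a scaling between arrays, other filters, 1 probe a gene, other eBayes settings, array weights, only the groups compared, slide or scan day as a block, and leaving out each mouse. The 2 sets of left-out arrays and the adipocyte covariate were chosen after seeing the data. Figures were drawn with matplotlib 3.10.9 in Python 3.11.15.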

Additional observations from a re-analysis of the deposited data

Results flagged for a closer look

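The second Cd59a probe in nano-TiO2 day 28 replicate 2 had a log2 ratio of 0.6196, while the other 5 mice of its group lay between 1.324 and 1.701. Its gap to the nearest mouse was 0.652 of the range of the group, above the limit of Dixon's test for 6 samples. Chance alone marks about 5% of groups, and 1 of the 36 groups of member probes tested was marked. The brighter Cd59a probe was at 3.57 in the same mouse, the highest of its group.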

How the results depend on the processing

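With 1 mouse left out at a time, the count of all probes past the threshold in controls ran from 1034 to 2343, for the difference of effects from 0 to 319, at day 1 from 0 to 12 and at day 28 it was 0. The mice whose omission moved such a count by over 1.5 times or from 0 were control day 1 replicates 1 and 2 and control day 28 replicates 4 and 5 in controls, nano-TiO2 day 1 replicate 1 at day 1, and control day 28 replicate 6, nano-TiO2 day 1 replicate 1 and nano-TiO2 day 28 replicates 3 and 6 for the difference of effects. Of the member probes 5 to 6 passed in controls, 0 to 2 for the difference of effects and 0 in the other comparisons. In controls the count of all probes and of member probes was 80 and 2 with normexp fitted on all spots, 86 and 1 with median centring, 0 and 0 with slide as a block, 2 and 0 without the arrays with liver or lung transcripts, and 0 and 0 with the adipocyte covariate. All probes past it there were 4477 with the scanner log ratios, where Cd59a also passed (-0.28, limma adjusted p = 0.0486), and 3249 with array weights. For the difference of effects 46 probes passed with the scanner log ratios, 86 with array weights and 98 without the arrays with few atrial transcripts, 1 of them a member (Clu) under each of the last 2. At day 1 the count was 5, 4 and 39 under the same 3 settings, with 1 member (Clu) in the last. Cd55 lost its call in controls also with plain background subtraction, Cy5 alone and no filter on dim probes. The share of calls in controls that were higher was 65.8% as reported, 90% with normexp on all spots, 44.8% with the scanner log ratios, 100% with median centring and 53.8% with Cy5 alone. Median centring moved the median of all probes to 0.152 at day 1, -0.238 for the difference of effects and -0.106 for nano-TiO2 over time.

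Of 1745 recomputed values 1584 kept direction and side of the threshold and 86 changed sign. None of the sign changes had passed the threshold except Cfp in controls, and most were of Cd59a, its second (dimmer) probe and Cr1l, which lay near 0. The cause was not tested. The log2 differences that changed sign, among the nano-TiO2 effects at day 1 and day 28, their difference, the controls and the nano-TiO2 mice over time (day 28 against day 1), follow by setting. With plain background subtraction they were, for day 1, Cd59a dimmer probe -0.042, and for nano-TiO2 over time Cd59a dimmer probe 0.0010. With no background subtraction they were, for day 28, Cr1l -0.012. With normexp fitted on all spots they were, for day 1, Cd59a 0.076 and Cr1l 0.042, and for day 28 Cd59a -0.14 and Cr1l -0.0025, and for the difference of effects Cd59a -0.22 and Cr1l -0.044, and for controls Cr1l 0.031, and for nano-TiO2 over time Cd59a -0.37 and Cr1l -0.013. With the scanner log ratios they were, for day 1, Cd59a dimmer probe -0.13, and for day 28 Cd59a dimmer probe 0.054, and for the difference of effects Cd59a dimmer probe 0.19, and for controls Cd59a dimmer probe -0.22, and for nano-TiO2 over time Cd55 0.096 and Cd59a -0.032. With median centring they were, for day 1, Cd59a 0.18, and for day 28 Cd59a -0.095, and for the difference of effects Cd59a -0.28, and for controls Cd59a 0.13 and Cr1l 0.011, and for nano-TiO2 over time Cfp -0.040 and Cd59a -0.15. With Cy5 alone they were, for day 1, Cd59a dimmer probe -0.068, and for the difference of effects Cd59a dimmer probe 0.047, and for controls Cd59a dimmer probe -0.024, and for nano-TiO2 over time Cfb 0.023, Cd59a dimmer probe 0.023 and Cr1l -0.0097. With array weights they were, for day 1, Cd59a dimmer probe -0.14, and for the difference of effects Cd59a dimmer probe 0.081, and for controls Cd59a dimmer probe -0.031, and for nano-TiO2 over time Cfb 0.0031, Cd59a -0.0063 and Cd59a dimmer probe 0.050. With slide as a block they were, for controls, Cr1l 0.053, and for nano-TiO2 over time Cd59a dimmer probe 0.021. Without the arrays with few atrial transcripts they were, for day 1, Cd59a dimmer probe -0.015, and for nano-TiO2 over time Cd59a dimmer probe 0.0094. Without the arrays with liver or lung transcripts they were, for day 28, C3 dimmer probe 0.074, Cfb 0.0098, Cd55 0.031 and Cd59a -0.013. With the adipocyte covariate they were, for day 1, C3 dimmer probe -0.046, Cfb -0.063, Cfp -0.12 and Cd59a 0.051, and for day 28 C3 0.17, Cfp 0.27 and Cd59a -0.054, and for the difference of effects Cfb 0.045, Cfp 0.39 and Cd59a -0.10, and for controls Cfp -0.15 and Cd59a 0.10, and for nano-TiO2 over time Cfb 0.087 and Cd59a -0.0020. With 1 mouse left out, the ranges that crossed 0 were Cr1l for day 1 -0.12 to 0.015, Cr1l for controls -0.065 to 0.039, Cr1l for the difference of effects -0.0054 to 0.13, Cd59a dimmer probe for day 1 -0.079 to 0.24, Cr1l for day 28 -0.044 to 0.047, Cd59a dimmer probe for nano-TiO2 over time -0.13 to 0.11, Cfb for nano-TiO2 over time -0.27 to 0.14, Cr1l for nano-TiO2 over time -0.014 to 0.12, Cd59a for nano-TiO2 over time -0.040 to 0.094, Cd59a dimmer probe for day 28 -0.23 to 0.028 and Cfp for nano-TiO2 over time -0.10 to 0.28. Depth is limited by the dim probes: in the reference Cd55 was well above background on 2 of 22 arrays, and C3ar1 and C5ar1 were not kept. No paired analysis was possible because the labels give the groups no shared replicate numbers, so mice were matched only by slide, through slide as a block and the differences within slides.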
